A study of Mus musculus with 12 samples.

Results

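Nfkb1, Nfkbia, Nfkbiz, Tnfaip3 and Icam1 are 5 genes of the NF-kB pathway. They were taken by gene symbol and make up 5 of the 11669 genes in a table of mouse RNA-seq values. All 5 passed the filter on low values and were among the 8615 genes tested. In cells given a preparation whose name carries D, Nfkb1, Nfkbia, Nfkbiz and Tnfaip3 were lower than in cells given one without D, on every scaling of the libraries that was tried. As deposited, Tnfaip3 was the member with the largest fold difference. Icam1 was higher as deposited and lower per read sequenced, and its level relative to Nfkb1, which a factor per library cannot alter, was higher with D in all 6 libraries. Nfkb1 was itself strongly lowered, however, so most genes rose relative to it. The percentile of Icam1 among the genes of its own library was 87.0 ± 1.33 with D and 88.8 ± 1.64 without D (SD, n = 6 each), with overlapping ranges. Adding P to the D preparation, or giving the carrier without D, moved none of the 5 genes past the threshold of the test.

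NF-kB is a family of dimeric transcription factors that rest in the cytoplasm and enter the nucleus when receptors for tumour necrosis factor, interleukin 1 or microbial products signal. Nfkb1 encodes the precursor p105, which is processed to the subunit p50. Nfkbia encodes IkB-alpha, which binds the dimers and is degraded when the IkB kinase complex phosphorylates it. Nfkbiz encodes IkB-zeta, an inducible nuclear relative that takes part in transcription of a subset of inflammatory genes. Tnfaip3 encodes A20, a ubiquitin-editing enzyme that dampens signalling upstream of the kinase complex. Both Nfkbia and Tnfaip3 are themselves NF-kB target genes, and so form a negative feedback. Icam1 encodes an adhesion molecule that leukocyte integrins bind, and is likewise a known NF-kB target in myeloid and endothelial cells.

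The study asked what nanodrugs wrapped in an engineered cancer cell membrane do to TAMC. The labels enter that name as a cell line, with marrow as the tissue and immune cell as the type. Cells were exposed for 24 h to NP-D@MP, NP-D@M, NP@M or PBS, with 3 libraries in each of these 4 groups, and the title of the series speaks of a drug against cyclin-dependent kinases. What these abbreviations stand for is not said, and no dose, strain, age or genotype is given. NP-D@MP and NP-D@M are called with D here, NP@M and PBS without D. No label tells whether replicate libraries are separate cultures or animals, and the p-values therefore reflect how much these 12 libraries vary, which may be technical.

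Read counts were recovered from the deposited values and the gene lengths, and their total per library lay between 14444950 and 17338264. The extraction protocol speaks of retinas, but 0 of 9 retina markers were among the genes of the table, against 15 of 15 markers of monocytes and macrophages and 14 of 16 of neutrophils and their precursors. The summed level of the monocyte and macrophage markers was 35636 to 37892 FPKM, a level per exon length and library size, in NP-D@MP and 30007 to 40685 in NP-D@M, against 2544 to 3062 in NP@M and 2468 to 3896 in PBS. The table held 7 of 9 dendritic cell markers, whose sums were 517 to 627 FPKM in NP-D@MP and 580 to 736 in NP-D@M, against 104 to 117 in NP@M and 102 to 108 in PBS. Of the other cell types, 2 of 11 T and NK cell markers, 2 of 8 B cell markers and 5 of 9 endothelial markers were in the table. Without D, NP@M replicate 2 and PBS replicate 3 stood apart, having 9.11% and 9.31% of genes at 0 against 2.65% to 2.96% in the other 4. The 6 libraries with D had 8.94% to 13.4% of genes at 0. Mitochondrially encoded genes took 1.06% to 3.17% of recovered reads with D and 0.753% to 1.01% without D. Both measures thus moved with the split by D that the results rest on, and their part in them was not tested. The deposited values had been scaled differently with and without D: the library size they imply was 0.504 ± 0.0316 times the recovered reads with D and 2.32 ± 0.0635 times without D (SD, n = 6 each). Going over to read totals multiplies values by a factor per library, which on a plain log2 scale is -2.17 for NP-D@M against NP@M and -2.24 for NP-D@MP against PBS. Fold changes on log2(FPKM + 1) move by less, and the less the lower the gene. The main results are given on both scales.

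The bases upstream of the annotated start of Icam1, Tnfaip3 and Nfkbia are shown because these are the members known as NF-kB targets whose promoter could be matched, and because Icam1 parted from the other two in the data. They come from RefSeq on GRCm38.p6 and are written 5′ to 3′ on the gene's own strand, ending at the base before the start. The Icam1 stretch is chr9:21015690-21015939 (plus strand), that of Tnfaip3 is chr10:19015411-19015547 (minus strand), shortened to bases outside annotated exons, and that of Nfkbia is chr12:55492648-55492897 (minus strand). Capitals mark matches to the kappaB consensus or to GGAAATTCC on either strand.
Icam1: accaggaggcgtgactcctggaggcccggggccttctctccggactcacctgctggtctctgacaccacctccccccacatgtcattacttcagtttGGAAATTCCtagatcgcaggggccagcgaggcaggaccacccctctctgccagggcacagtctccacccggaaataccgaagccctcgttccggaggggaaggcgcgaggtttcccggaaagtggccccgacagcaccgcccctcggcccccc
Tnfaip3: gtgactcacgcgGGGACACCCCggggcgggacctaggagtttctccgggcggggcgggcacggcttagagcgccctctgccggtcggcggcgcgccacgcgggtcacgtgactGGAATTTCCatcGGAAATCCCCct
Nfkbia: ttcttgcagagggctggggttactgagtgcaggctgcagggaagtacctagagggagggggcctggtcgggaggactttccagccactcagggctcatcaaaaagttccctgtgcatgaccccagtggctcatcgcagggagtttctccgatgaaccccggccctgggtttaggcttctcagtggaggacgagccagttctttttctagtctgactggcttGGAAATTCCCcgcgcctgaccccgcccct

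GGAAATTCC was chosen after these sequences had been read. It occurred once in each of the 3 stretches, 153 to 145 bases before the start of Icam1, 24 to 16 before that of Tnfaip3 (on the opposite strand) and 29 to 21 before that of Nfkbia. Over windows of 250 bases it was present in 94 of 32851 RefSeq promoters, which is 0.286%. The kappaB consensus, present in 7.25% of those promoters, matched in Nfkbia at a place that overlaps GGAAATTCC, and in Tnfaip3 at bases 125 to 116 and 12 to 3 before the start. Icam1 had 0 matches to the consensus as searched. A match of letters is a description and shows no binding. A second annotated start of Tnfaip3 held neither motif, and of the 5 members 3 were matched to the promoter table.

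Positions of the genes are on GRCm38. The subunit gene Nfkb1 (ENSMUSG00000028163) lies on chromosome 3 at 135584655 to 135691547 on the minus strand, a span of 107 kb that carries 12061 bases of exons. Nfkb1 was measured at 1.51, 1.54 and 1.93 FPKM in NP-D@MP and at 1.53, 1.92 and 1.54 FPKM in NP-D@M. In NP@M it stood at 9.03, 14.0 and 8.94 FPKM, and in PBS at 8.16, 9.92 and 10.3 FPKM. All 6 libraries with D lay below all 6 without D, and within each kind the groups overlapped. The gene was lower in NP-D@M than in NP@M by a log2 fold change of -2.10 (SE 0.19; limma, Benjamini-Hochberg adjusted p = 1.68e-06). Between NP-D@MP and PBS it was -1.98 (SE 0.19; limma, adjusted p = 2.62e-06). These fold changes are on the scale log2(FPKM + 1), which understates the change of low genes. In plain FPKM, Nfkb1 was 6.39 times lower in NP-D@M and 5.71 times lower in NP-D@MP. In bulk RNA, fewer cells that express a gene and less RNA per cell cannot be told apart.

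Nfkbia (ENSMUSG00000021025; chromosome 12, 55489410 to 55492647, minus strand, 1610 exonic bases) was the most abundant of the 5 in every library without D. IkB-alpha transcripts reached 13.4, 18.1 and 29.9 FPKM in NP-D@MP and 22.4, 14.5 and 19.2 FPKM in NP-D@M. The values were 73.4, 53.9 and 74.4 FPKM in NP@M and 72.2, 71.1 and 55.8 FPKM in PBS. The highest library with D, at 29.9 FPKM, stayed below the lowest without D, at 53.9 FPKM, while NP-D@MP and NP-D@M overlapped, as did NP@M and PBS. The log2 fold change was -1.80 in NP-D@M against NP@M (SE 0.28; limma, adjusted p = 0.000116) and -1.71 in NP-D@MP against PBS (SE 0.28; limma, adjusted p = 0.000165). The inhibitor transcript thus stood 3.60 times lower in NP-D@M and 3.24 times lower in NP-D@MP, in plain FPKM.

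Nfkbiz (ENSMUSG00000035356; chromosome 16, 55811375 to 55838899, minus strand, 5018 exonic bases) was the least abundant of the 5 in every library without D. It was measured at 0.547, 0.367 and 1.80 FPKM in NP-D@MP and 2.03, 0.940 and 1.64 FPKM in NP-D@M, on 15 to 88 reads. NP@M libraries held 4.96, 6.67 and 4.31 FPKM, and PBS libraries 3.79, 5.65 and 5.74 FPKM, on 655 to 1178 reads. Of all members Nfkbiz varied most among the libraries with D: NP-D@MP replicate 3 was above NP-D@M replicates 2 and 3, and the other 2 NP-D@MP libraries were the lowest of all. Even so, no library with D overlapped one without D. The log2 fold change was -1.32 in NP-D@M against NP@M (SE 0.29; limma, adjusted p = 0.00119) and -1.73 in NP-D@MP against PBS (SE 0.29; limma, adjusted p = 0.00018). As a ratio of mean FPKM, Nfkbiz was 3.46 times lower in NP-D@M and 5.60 times lower in NP-D@MP. Without NP-D@MP replicate 3 the fold in NP-D@MP was 11.1, an alternative added after seeing the data.

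Tnfaip3 (ENSMUSG00000019850; chromosome 10, 19000910 to 19015657, minus strand, 7226 exonic bases) showed the widest separation. A20 transcripts were at 0.285, 0.136 and 0.422 FPKM in NP-D@MP and 0.320, 0.494 and 0.359 FPKM in NP-D@M. The same gene had 10.5, 16.4 and 10.1 FPKM in NP@M and 8.03, 11.2 and 22.1 FPKM in PBS. Behind these values stood 8 to 28 reads per library with D and 1996 to 5047 without D, so the low values are imprecise, but the gap is far wider than their spread. The fold change was -3.23 in NP-D@M against NP@M (SE 0.30; limma, adjusted p = 2.56e-06) and -3.42 in NP-D@MP against PBS (SE 0.30; limma, adjusted p = 1.7e-06), both on the log2 scale. In plain FPKM the gene was 31.6 times lower in NP-D@M and 49.0 times lower in NP-D@MP. The 2 libraries that stood apart were the highest for this gene in their groups, PBS replicate 3 at 2.29 times and NP@M replicate 2 at 1.59 times the mean of their mates. Without both, an alternative added after seeing the data, the log2 fold changes were -3.03 in NP-D@M against NP@M and -3.04 in NP-D@MP against PBS.

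Icam1 (ENSMUSG00000037405; chromosome 9, 21015985 to 21028817, plus strand, 4360 exonic bases) went the other way as deposited. It had 30.7, 26.6 and 31.4 FPKM in NP-D@MP and 34.4, 38.7 and 37.4 FPKM in NP-D@M. Lower values of 18.5, 17.6 and 17.4 FPKM were found in NP@M, and of 15.8, 17.8 and 11.9 FPKM in PBS. On this scale all 6 libraries with D exceeded all 6 without D, and all 3 NP-D@M libraries exceeded all 3 of NP-D@MP. The log2 fold change was 1.00 in NP-D@M against NP@M (SE 0.17; limma, adjusted p = 0.000216) and 0.93 in NP-D@MP against PBS (SE 0.17; limma, adjusted p = 0.000366).

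As reads per library total, in RPM, the order of the groups turned round for Icam1. Icam1 had 67.5, 56.5 and 64.0 RPM in NP-D@MP and 82.9, 81.3 and 86.0 RPM in NP-D@M, against 189, 177 and 178 RPM in NP@M and 161, 183 and 114 RPM in PBS. With FPKM rescaled to read totals the log2 fold change was -1.08 in NP-D@M against NP@M (limma, adjusted p = 0.000189) and -1.20 in NP-D@MP against PBS (limma, adjusted p = 8.28e-05). On that scale Icam1 was 2.18 times lower in NP-D@M than in NP@M and 2.43 times lower in NP-D@MP than in PBS. The direction of the Icam1 change is thus set by the scaling, and the labels do not state the method behind the deposited one. The antisense gene Gm47079 shares 511 exonic bases with Icam1, and since the strand used in counting is not given in the sources used here, reads of both cannot be told apart there.

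**Figure D1:**
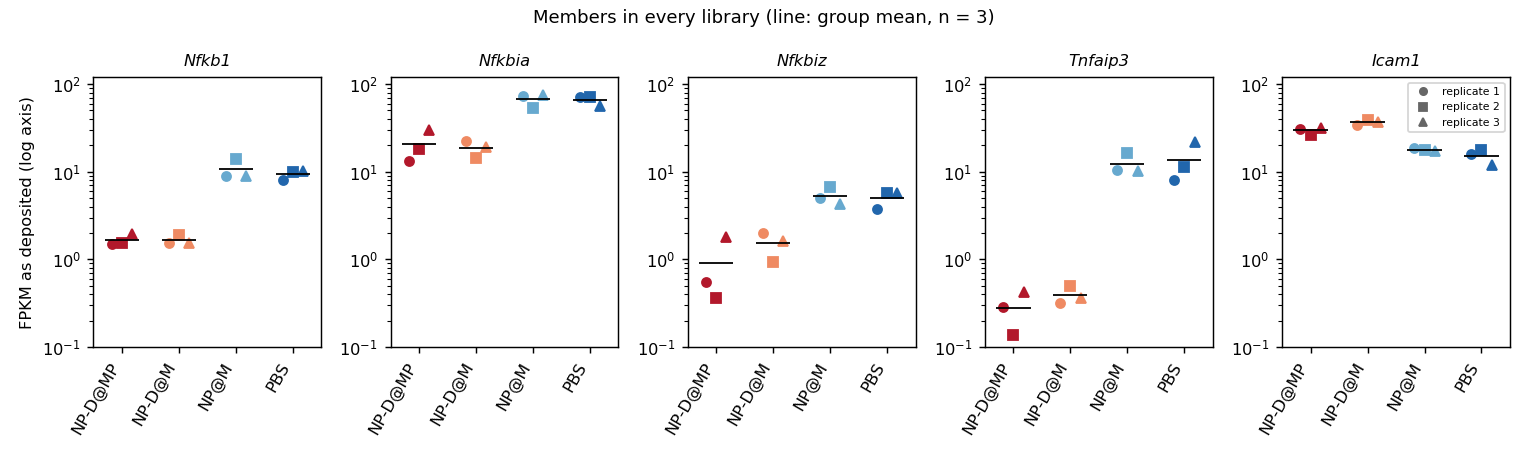
FPKM as deposited (log axis) of the 5 genes in each of the 12 libraries, with the group mean as a line (n = 3). Libraries with D lie below those without D for Nfkb1, Nfkbia, Nfkbiz and Tnfaip3, and above them for Icam1 (26.6 to 38.7 FPKM with D, 11.9 to 18.5 without D).

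All 5 members were called at an adjusted p under 0.05 in NP-D@M against NP@M, where 91.2% of all tested genes were called, 45.2% higher and 46% lower. Likewise 5 of 5 were called in NP-D@MP against PBS, beside 91.5% of all tested genes, 45.7% higher and 45.8% lower, while voom called 82.9% and 83.1% of genes in the 2 comparisons. Groups did not overlap for 5 of 5 members in both comparisons, against 93% and 89.4% of tested genes. At this background a call as such says little about the members, so the rank of their changes is given as well. The ranks use log2(FPKM + 1), where the added 1 shrinks the change of low genes, so they also depend on a gene's level. Among the 8615 log2 fold changes of NP-D@M against NP@M, Tnfaip3 stood at percentile 1.20, Nfkb1 at 8.90, Nfkbia at 14.0, Nfkbiz at 25.6 and Icam1 at 63.3. On read totals these percentiles were 1.71 for Tnfaip3, 6.47 for Nfkb1, 5.36 for Nfkbia, 20.1 for Nfkbiz and 54.8 for Icam1. They are still among the 8615 genes, and those not tested on read totals counted as not lower.

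On read totals the background changed its shape. Then 67.1% of the genes tested were called lower and 8.07% higher in NP-D@M against NP@M, and 67.7% lower and 8.07% higher in NP-D@MP against PBS, with median log2 fold changes of -1.43 and -1.44 against 0.16 and 0.13 as deposited. All 5 members were called lower on that scale in both comparisons. Nfkb1 was 28.8 times, Nfkbia 16.0 times, Nfkbiz 15.2 times and Tnfaip3 143 times lower in NP-D@M than in NP@M. In NP-D@MP against PBS the folds on read totals were 27.0 for Nfkb1, 15.5 for Nfkbia, 26.8 for Nfkbiz and 230 for Tnfaip3, again lower in NP-D@MP. Relative to the median of the genes that passed the filter as deposited, Icam1 was higher by 0.85 (log2) as deposited and by 0.51 on read totals in NP-D@M against NP@M. The same difference for Tnfaip3 was -3.39 as deposited and -3.01 on read totals. On read totals that median covers only those of these genes that were also tested there, so it is not the -1.43 above.

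**Figure D2:**
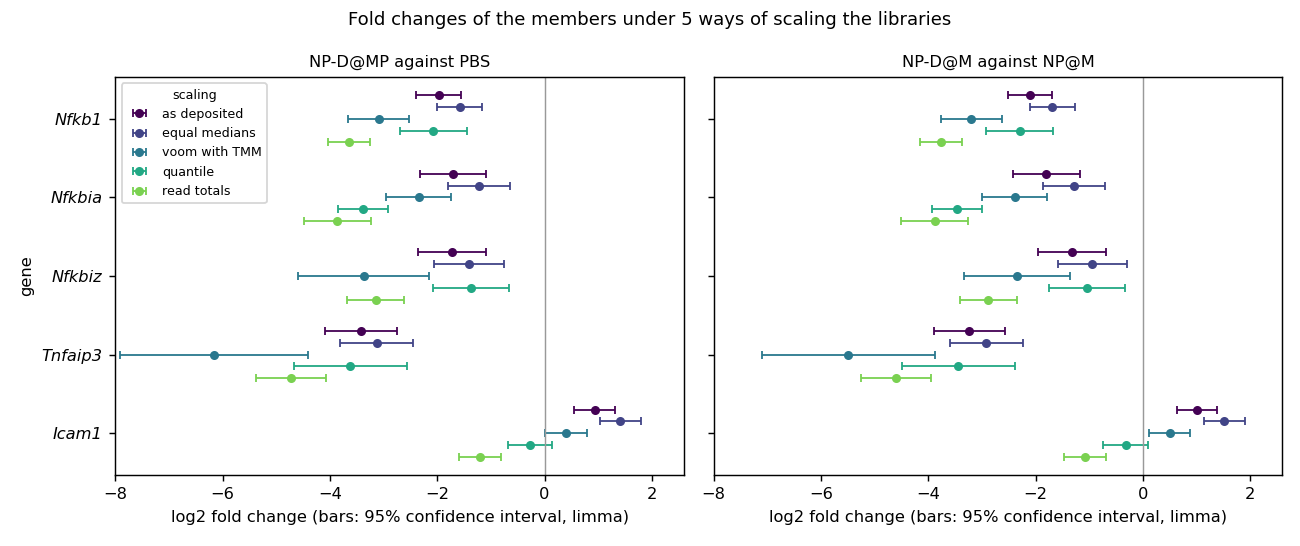
Log2 fold changes of the 5 genes with 95% confidence intervals (limma) in NP-D@MP against PBS and NP-D@M against NP@M, under 5 ways of scaling the libraries. Nfkb1, Nfkbia, Nfkbiz and Tnfaip3 stay below 0 under each, while Icam1 runs between -1.08 and 1.52 in NP-D@M against NP@M and between -1.20 and 1.41 in NP-D@MP against PBS.

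Other scalings put Icam1 between these ends. Quantile normalization gave -0.32 in NP-D@M against NP@M (limma, adjusted p = 0.146) and -0.27 in NP-D@MP against PBS (limma, adjusted p = 0.214), neither past the threshold. The voom method of limma on recovered reads gave 0.50 (adjusted p = 0.0201) and 0.40 (adjusted p = 0.0569), which ended the call in NP-D@MP against PBS. For the other 4 members the size depended on the scaling but the call did not, and the log2 fold change of Tnfaip3 in NP-D@M against NP@M ran between -5.49 and -2.92 over all alternatives.

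The rank of a gene within its own library needs no scaling between libraries. Tnfaip3 stood at percentile 34.3 ± 5.66 of the table's genes with D and 85.1 ± 5.31 without D (SD, n = 6 each). Nfkb1 was at 57.5 ± 1.28 with D and 82.4 ± 3.40 without D, and Nfkbia at 82.6 ± 2.01 with D and 97.3 ± 0.143 without D. Nfkbiz ranked at 50.7 ± 9.63 with D and 70.1 ± 4.78 without D. Icam1 ranked at 87.0 ± 1.33 with D and 88.8 ± 1.64 without D, and its ranges of 84.9 to 88.2 and 86.2 to 90.8 overlapped. The order of the 5 genes in FPKM, which is per length, differed accordingly. With D, Icam1 was highest, Nfkbia second and Tnfaip3 lowest in 6 of 6 libraries, whereas Nfkbia was highest and Nfkbiz lowest in 6 of 6 libraries without D.

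**Figure D3:**
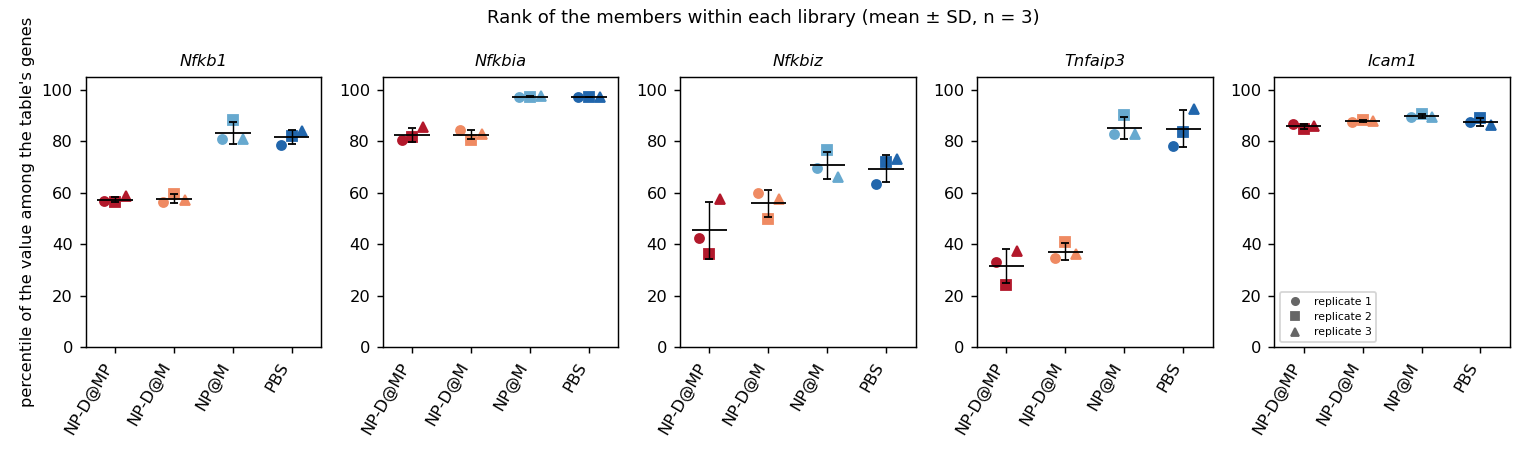
Percentile of each gene's value among the 11669 genes of its own library (points: libraries; bars: mean ± SD, n = 3). Icam1 stays at 84.9 to 90.8 in all 12 libraries, and Tnfaip3 averages 34.3 with D against 85.1 without D.

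Ratios within a library are likewise free of scaling, and Nfkb1 served as the common denominator. Nfkb1 was itself lower with D, at percentile 8.90 of the log2 fold changes in NP-D@M against NP@M. Most tested genes thus had a higher log2 fold change than Nfkb1, and a higher ratio to it is not particular to Icam1. The share of all genes with such a ratio was not counted. The ratio of Icam1 to Nfkb1 in FPKM was 16.3 to 24.3 with D and 1.15 to 2.05 without D, so the 2 kinds of library did not overlap. Its mean on the log2 scale was 4.32 ± 0.22 with D and 0.72 ± 0.36 without D (SD, n = 6 each), a difference of 3.59. The 2-sided exact permutation test over 6 against 6 libraries gave p = 0.00216, the smallest it can give, and 0.00433 after Benjamini-Hochberg adjustment over the 4 ratios. With 3 against 3 libraries no exact p can fall below 0.1, and NP-D@M against NP@M and NP-D@MP against PBS both gave 0.1 for this ratio.

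The ratio of Tnfaip3 to Nfkb1 moved in the opposite direction. Its log2 mean was -2.40 ± 0.56 with D and 0.31 ± 0.39 without D (SD, n = 6 each), a difference of -2.72 with no overlap (exact permutation p = 0.00216, adjusted 0.00433). A20 transcripts therefore fell further than those of the subunit: per unit of Nfkb1 FPKM there were 0.0884 to 0.257 units of Tnfaip3 with D and 0.984 to 2.14 without D. The ratio of Nfkbia to Nfkb1 was 3.52 ± 0.41 with D and 2.74 ± 0.46 without D (log2, SD, n = 6 each), with overlapping ranges (exact permutation p = 0.0152, adjusted 0.0202). Without the 2 libraries that stood apart that difference was 0.50 (exact permutation, adjusted p = 0.0889), so the call rests on them. The ratio of Nfkbiz to Nfkb1 averaged -0.70 ± 0.98 with D and -0.96 ± 0.13 without D, a difference of 0.26 that did not pass (exact permutation p = 0.539).

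**Figure D4:**
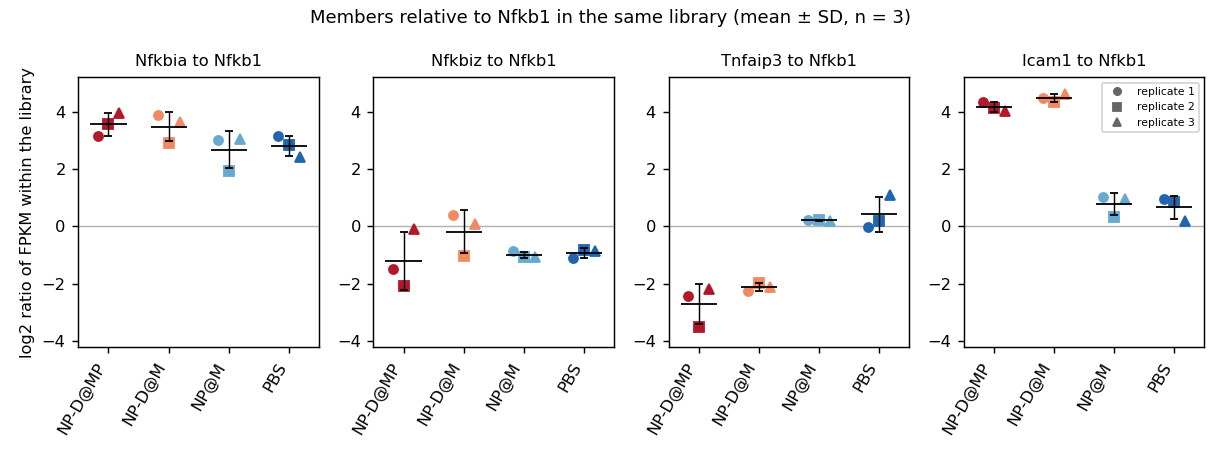
Log2 ratio of each gene's FPKM to that of Nfkb1 in the same library (points: libraries; bars: mean ± SD, n = 3 per group). The Icam1 ratio averages 4.32 with D against 0.72 without D, and the Tnfaip3 ratio -2.40 against 0.31.

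Whether P added to the D preparation mattered is the question of NP-D@MP against NP-D@M. None of the 5 genes was called, and of all tested genes 0% were called by limma, 4.97% had an unadjusted p under 0.05, and voom called 1 gene. The log2 differences, each with its 95% confidence interval, were -0.01 for Nfkb1 (-0.42 to 0.41), 0.07 for Nfkbia (-0.54 to 0.69) and -0.12 for Tnfaip3 (-0.79 to 0.54). For Nfkbiz the difference was -0.46 (-1.09 to 0.17). Icam1 averaged 29.6 ± 2.58 FPKM in NP-D@MP and 36.8 ± 2.21 FPKM in NP-D@M (SD, n = 3 each), a log2 difference of -0.31 (-0.69 to 0.07; unadjusted p = 0.0986 and adjusted p = 1, limma). The groups did not overlap for Icam1, as for 14.7% of all tested genes. The intervals leave room for differences of these sizes, and a missed threshold does not show that both preparations acted alike.

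The carrier without D was tested in NP@M against PBS. Again 0 members were called, beside 0.0116% of tested genes by limma (1 gene), 0.313% at an unadjusted p under 0.05, and 0 genes by voom. Log2 differences were 0.13 for Nfkb1 (95% confidence interval -0.28 to 0.55), 0.01 for Nfkbia (-0.60 to 0.63) and 0.06 for Nfkbiz (-0.57 to 0.69). For Tnfaip3 the difference was -0.06 (-0.73 to 0.60), and for Icam1 it was 0.24 (-0.14 to 0.61). As deposited, the order of the Icam1 means was 36.8 FPKM in NP-D@M, 29.6 in NP-D@MP, 17.8 in NP@M and 15.2 in PBS. Neither the upper pair nor the lower pair in this order differed past the threshold, and NP-D@MP and NP@M, the neighbours between them, did not overlap and were not tested against each other. On read totals the order was NP@M, PBS, NP-D@M and NP-D@MP, with both groups that hold D at the low end.

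The rest of the pathway was read from 8 lists by role, and the numbers below are for NP-D@M against NP@M. There, 46% of all tested genes were called lower and 45.2% higher as deposited, and 67.1% lower and 8.07% higher on read totals. NF-kB subunit genes were lower in 5 of 5 cases, and their median log2 change was -2.10 as deposited and -3.59 on read totals, beside medians of 0.16 and -1.43 over all tested genes. Rela, which encodes the transactivating subunit p65, was at 1.84 ± 0.378 FPKM in NP-D@M and 22.6 ± 9.64 FPKM in NP@M (SD, n = 3 each), a log2 fold change of -2.96 (limma, adjusted p = 0.000109). Rel, the c-Rel subunit, changed by -2.17, Relb by -1.92 and Nfkb2, the p100 precursor, by -1.03. The Nfkb2 call ended without NP-D@M replicate 2 (-0.73; limma, adjusted p = 0.072), without NP@M replicate 1 (-0.88; limma, adjusted p = 0.0541) and without NP@M replicate 3 (-0.92; limma, adjusted p = 0.0506). Within this family Nfkb1 was neither the most nor the least changed.

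Of 6 IkB family genes 5 were lower, with a median of -1.59 (-3.50 on read totals). For this list and the next, 46% of all tested genes were lower as deposited and 67.1% on read totals. Nfkbie, encoding IkB-epsilon, was at -2.56 and Bcl3, a nuclear relative, at -2.66. Nfkbid, which encodes another nuclear relative of IkB-zeta, was at -0.54 and did not pass (limma, adjusted p = 0.23). It had 4.59 FPKM in NP-D@M replicate 1 against 0.870 and 0.432 in the other 2, and without that library it was called at -1.13 (limma, adjusted p = 0.00243). Nfkbia and Nfkbiz thus lay between Bcl3 and Nfkbid. Among 12 tested genes of ubiquitin editing and feedback 11 were lower and 1 higher, with a median of -1.85 (-3.47 on read totals, where 11 were lower and 0 higher). Tnfaip3 had the largest change of that list on log2(FPKM + 1). N4bp1, an inhibitor of NF-kB signalling, followed with -3.14, and in plain FPKM it was 33.7 times lower, against 31.6 times for Tnfaip3. Otud7b, a deubiquitinase, changed by -1.28. Rnf11, a partner of A20, was higher by 1.79 as deposited and at -0.25 on read totals.

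The kinases upstream were split. Counts of this and the next 2 lists stand beside 46% of all tested genes lower and 45.2% higher as deposited. On read totals these shares were 67.1% and 8.07%. Of 10 tested genes of the IkB kinases and the kinases above them 8 were lower and 2 higher, with a median of -1.27 (-2.81 on read totals, where all 10 were lower). Lower were Tab1 (-2.28), a partner of TAK1, Ripk1 (-2.15), a kinase of the tumour necrosis factor receptor complex, Map3k14 (-1.35), the kinase of the non-canonical branch, and Ikbkg (-1.33), which encodes the scaffold NEMO. Ikbkb, which encodes the catalytic kinase of the canonical branch, was higher by 0.54 as deposited and at -1.01 on read totals, and Map3k7, encoding TAK1, was higher by 0.63 as deposited and at -1.21 on read totals. The Map3k7 call ended when any one of 4 libraries was left out: NP-D@M replicate 2 (0.54; limma, adjusted p = 0.123), NP-D@M replicate 3 (0.59; 0.103), NP@M replicate 1 (0.52; 0.133) and NP@M replicate 3 (0.50; 0.143). Chuk was not analysed here. Of 10 genes of ubiquitin ligases and related proteins of receptor complexes 6 were lower and 2 higher (9 lower and 0 higher on read totals). Among them were Birc3 at -2.42, Rnf31 at -1.54 and Traf2 at -1.53, against Rbck1 at 1.56 and Ube2n at 0.65. Of 21 receptors and adaptors 17 were lower and 4 higher (19 lower and 0 higher on read totals). The tumour necrosis factor receptor gene Tnfrsf1a was at -3.98, the Toll-like receptor gene Tlr2 at -4.33 and Irak3, a damper of Toll-like receptor signalling, at -2.89. Higher as deposited were Irak1, a kinase below those receptors, at 1.69, and the lipopolysaccharide co-receptors Cd14 at 1.63 and Ly96 at 1.56.

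The lists closest to Icam1 depended on the scaling as it did. Of 20 other NF-kB target genes 10 were higher, 6 lower and 4 not called as deposited, with a median of 1.00, where 45.2% of all tested genes were higher. On read totals 1 was higher and 11 lower, with a median of -1.13, where 8.07% of all genes were higher and 67.1% lower. The neutrophil chemokine gene Cxcl2 was higher by 3.91 as deposited and by 1.75 on read totals. The stress-response genes Ier3 and Gadd45b were higher by 2.99 and 2.18 as deposited and stood at 0.83 and 0.18 on read totals, where neither was called. Of 13 adhesion molecules and Icam1 ligands 11 were higher, 0 lower and 2 not called as deposited. Beside the same shares of all tested genes, 3 were higher and 6 lower on read totals. Those 3 include the integrin chains that form the Icam1 receptor Mac-1, Itgam (3.11 as deposited and 0.97 on read totals) and Itgb2 (2.65 and 0.49), and the third was Itgax (2.91 and 0.75). Itgal, which pairs with Itgb2 in the Icam1 receptor LFA-1, was at 1.10 as deposited and -0.99 on read totals. Markers of monocytes and macrophages moved with this list, with the summed levels given above, and at 25799 to 26775 RPM in NP-D@MP and 23970 to 29410 in NP-D@M against 10656 to 11573 in NP@M and 9772 to 14782 in PBS. Their part in the result was not tested.

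**Figure D5:**
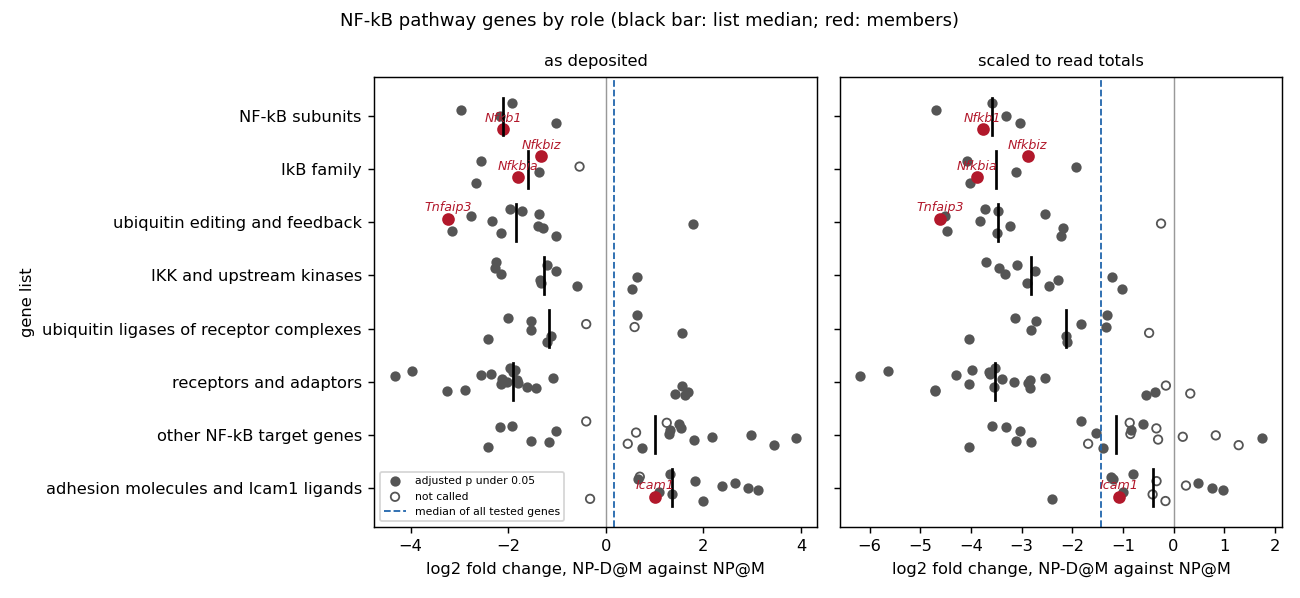
Log2 fold changes in NP-D@M against NP@M for the tested genes of 8 lists, as deposited and scaled to read totals (points: genes, filled where the adjusted p was under 0.05; black bar: list median; dashed line: median of all tested genes; red: the 5 members). The subunit, IkB and feedback lists have medians of -2.10, -1.59 and -1.85 as deposited, and the adhesion list has 1.35.

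The lists were counted in NP-D@MP against PBS as well. There, subunit genes were lower in 5 of 5 cases and IkB genes in 6 of 6, Nfkbid included at -1.18 (limma, adjusted p = 0.0199), a call that ended without PBS replicate 2 (adjusted p = 0.0585) or NP-D@MP replicate 2 (adjusted p = 0.0726). Feedback genes were lower in 11 of 12 cases and higher in 1, kinases lower in 8 of 10 and higher in 1. Of all tested genes 45.8% were lower as deposited. Of the 20 other targets 7 were higher and 8 lower as deposited, beside 45.7% and 45.8% of all tested genes, and 1 higher and 16 lower on read totals, beside 8.07% and 67.7%. Of the 13 adhesion genes 12 were higher and 1 lower as deposited, against 3 higher and 6 lower on read totals, beside the same shares. The first 4 lists named here had 0 genes higher on read totals and 5, 6, 12 and 10 lower, beside the 67.7% lower over all genes. These 2 comparisons share no library, but both were fitted together with 1 estimate of the spread. In NP-D@MP against NP-D@M and in NP@M against PBS 0 genes of the 8 lists were called.

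The genes whose profile came closest to each member were found by the root mean square of the differences between centred log2(FPKM + 1) profiles over the 12 libraries, among the 8615 tested genes. Zfp646 (0.0926) and Adnp2 (0.109) were nearest to Nfkb1, and Pdcd7 (0.148) and Incenp (0.154) to Nfkbia. Close on this scale does not mean an equal fold in plain FPKM, since the added 1 shrinks the change of low genes. Zfp646 averaged 0.0771 FPKM in NP-D@M and 3.64 in NP@M, where Nfkb1 had 1.67 and 10.7. Pdcd7 averaged 0.122 FPKM in NP-D@M and 2.82 in NP@M, where Nfkbia had 18.7 and 67.2. Stx12 (0.235) and Nub1 (0.249) came closest to Nfkbiz, whose nearest genes were the farthest off. Tiparp (0.118) and N4bp1 (0.144) lay next to Tnfaip3, N4bp1 being the feedback gene named above. Phf10 (0.129) and Ubxn8 (0.135) were nearest to Icam1. All 12 libraries share the split by D, which most tested genes followed in 1 direction or the other, and nothing about shared function or control was tested.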

How the data were processed

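RNA of 12 libraries, 3 in each of 4 groups, was sequenced after an Illumina TruSeq preparation, per the labels. The values used are those that the authors deposited in 1 table, called FPKM here. The header gives no unit. Multiplying a value by its gene's length and dividing by the library's smallest step gave whole numbers (tolerance 0.05) for 100% of values. These are taken as the recovered reads. Any value per length with 1 factor per library would pass this check, so FPKM is a reading of the unit. With D the implied library size, 0.504 times the recovered reads, is smaller than the reads themselves. The method behind the factor between libraries, the counting and the choice of genes for the table are not given in the sources used here. Bowtie 0.12.2 and mm8 appear in the submitters' processing notes with no role. Of the identifiers, 11665 matched GENCODE M21 and 11219 had the same coordinates, so positions are on GRCm38.

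Genes with at least 1 FPKM in at least 3 libraries were tested. In R 4.3.3, limma 3.58.1 was run on log2(FPKM + 1) with 1 mean per group and its trend and robust options, 2-sided, and p-values were Benjamini-Hochberg adjusted over all 8615 genes of each comparison. An adjusted p under 0.05 made a call. Ratios to Nfkb1 were tested by exact permutation over libraries with scipy 1.17.1 (Python 3.11.15). The limma fit was tried on simulated counts with few genes changed and no difference in scaling between groups, unlike these data. The recovery of reads and the rescaling were not simulated. Within a list, the text names up to 3 called genes per direction with the smallest adjusted p, and the subunits, Nfkbie, Bcl3, Nfkbid, Ikbkg and Itgal were added after their values were seen. Up to 2 genes nearest to each member were named if they had a proper symbol. The members and lists were chosen with earlier results of these data known. The labels mention no molecular identifiers, so read numbers speak of counting error only.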

Additional observations from a re-analysis of the deposited data

How the results depend on the processing

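The alternatives were 4 other scalings (read totals, equal medians, quantile, voom on recovered reads), 2 other filters, a pseudocount of 0.1, limma without trend and robust, a fit of only the libraries compared, a test against a log2 threshold of 1 and leaving out each library. Leaving out both PBS replicate 3 and NP@M replicate 2 was added after seeing the data. Nfkb1, Nfkbia and Tnfaip3 kept direction and call in both comparisons split by D under all of them. The fold threshold left 3 of 5 members called in NP-D@M against NP@M, Nfkbiz (limma, adjusted p = 0.248) and Icam1 (limma, adjusted p = 0.679) not among them. Icam1 turned round on read totals (-1.08 in NP-D@M against NP@M and -1.20 in NP-D@MP against PBS) and by quantile normalization (-0.32 and -0.27). The log2 difference of the Nfkbia ratio to Nfkb1 was 0.50 without both libraries, with 10 left, 0.61 to 0.89 without single ones, and 1.35 with Rela in place of Nfkb1 (exact permutation, adjusted p = 0.0115). The Nfkbiz ratio ran between 0.043 and 0.84 and did not pass under any of them.

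In the comparisons with 0 members called, some signs turned. In NP@M against PBS, leaving out single libraries gave -0.062 to 0.23 for Nfkb1, -0.11 to 0.16 for Nfkbia, -0.10 to 0.17 for Nfkbiz and -0.36 to 0.32 for Tnfaip3, and leaving out both libraries gave -0.0022 for Nfkb1, -0.0065 for Nfkbiz and 0.11 for Tnfaip3. In NP-D@MP against NP-D@M single libraries gave -0.077 to 0.063 for Nfkb1 and -0.22 to 0.33 for Nfkbia, which stood at -0.018 on read totals and -0.012 by quantile normalization. Icam1 kept its sign in both, and Nfkbiz and Tnfaip3 in NP-D@MP against NP-D@M, where Nfkbiz ran between -0.78 and -0.26 without single libraries and stood at -1.09 by voom. Depth limits Tnfaip3 and Nfkbiz with D, at 8 to 28 and 15 to 88 reads. No paired analysis was possible because the labels number the libraries across all groups and give the groups no shared replicate numbers.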

Other observations

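GGAAATTCC, the motif that the Icam1, Tnfaip3 and Nfkbia stretches have in common, was also looked up in all RefSeq promoters with a gene among those tested. Of the 31 tested genes that carry it, 17 (54.8%) were called higher and 12 (38.7%) lower in NP-D@M against NP@M as deposited (median log2 0.63). The 31 include the members themselves, Icam1 among the higher and Tnfaip3 and Nfkbia among the lower. For all 6298 tested genes with a promoter in the table, 41.9% were higher and 3151 genes were lower (median log2 -0.58). On read totals the 31 genes had 6 (19.4%) called higher and 15 (48.4%) lower, beside 7.73% and 66.6% of the 6298. Both sets are those tested as deposited. Genes of either set not tested on read totals, among them Hpn, Csad and Serpinb12, were counted as not called there. In NP-D@MP against PBS the 31 genes had 16 (51.6%) called higher and 13 (41.9%) lower as deposited, beside 42.4% and 49.8% of the 6298. On read totals 2 (6.45%) were higher and 17 (54.8%) lower, beside 8.22% and 67.2% of the 6298. The motif was chosen after the members' sequences had been read, so these shares are a description, with no test.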
